A study of Mus musculus with 6 samples.

Results

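The nitric oxide synthase genes Nos1, Nos2 and Nos3, together with Nos1ap, Prkg1 and Pde5a, were followed in cells sorted from the myenteric layer of the mouse colon. Every probe set on the array whose only annotated gene symbol was one of these 6 genes was taken, which gave 13 of the 45037 probe sets that are not array controls, and 6 of 18193 genes. Nos1 had 4 probe sets, Pde5a had 3, Prkg1 and Nos1ap had 2 each, and Nos2 and Nos3 had 1 each. The libraries came from Mapttm1(EGFP)Klt/J mice, which carry the fluorescent protein EGFP at the locus of the microtubule protein tau. Cells were separated by fluorescence into 3 libraries with the label EGFP-positive (colonic neurons, in the words of the labels) and 3 with the label EGFP-negative (myenteric cells). All mice of both groups had been given a fluorescently tagged cholera toxin subunit into the celiac ganglion under anaesthesia and were killed 3 to 4 days later. Each library pooled cells of 2, 4 or 6 mice, and age, sex and zygosity are not given in the labels. The values are log2 expression values of 1-colour Affymetrix arrays, given below for replicates 1, 2 and 3 in that order.

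Nitric oxide is a gas transmitter made from arginine. In the gut wall it is released by inhibitory motor neurons that express Nos1, and it relaxes smooth muscle. Its receptor is soluble guanylyl cyclase, which makes cGMP. The cGMP-dependent kinase encoded by Prkg1 carries the signal on in smooth muscle and interstitial cells, and the phosphodiesterase encoded by Pde5a breaks cGMP down. Nos2 is the inducible synthase of activated macrophages and epithelium, Nos3 is the synthase of blood vessel endothelium, and Nos1ap encodes an adaptor that binds the neuronal synthase.

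Mapt RNA did not follow the labels in all libraries. Mapt, the gene at the EGFP locus, stood at 1.43, 1.32 and 5.55 under the EGFP-positive label and at 1.44, 1.64 and 1.38 under the EGFP-negative label. Control probe sets for TrpnX, a bacterial transcript that serves as a negative control here, reached 1.22 to 1.48 depending on the library. Mapt was therefore near background in EGFP-positive replicates 1 and 2. The labels do not state how the EGFP insertion affects Mapt RNA, so these values do not settle which cells a library held. Each direction below refers to the labels. Libraries with the same number also resembled each other across the array (correlations of their deviations from the group means of 0.36, 0.30 and 0.38). Between 6128 and 7586 probe sets per library exceeded a log2 value of 6, with the fewest in EGFP-negative replicate 1. The spiked poly-A controls were brightest in replicate 1 of both groups, at a mean log2 of 8.83, 5.23 and 6.48 under the EGFP-positive label and 9.60, 6.17 and 4.29 under the EGFP-negative label. The number of arrays limits the precision, and p-values measure the spread among these 6 pooled libraries.

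Of the 3 synthases, Nos1 had a high signal in a single library, EGFP-positive replicate 3, Nos3 was low in all 6 libraries and lowest in that same library, and Nos2 stayed at background throughout. Prkg1 and Pde5a, which act downstream of the nitric oxide receptor, were present under both labels, and 4 of their 5 probe sets differed more between replicate numbers than between labels, the exception being Pde5a 1460118_at. None of the 13 probe sets passed the test between the labels (limma over all 45037 probe sets, Benjamini-Hochberg adjusted p below 0.05), where 0% of all probe sets passed. At an unadjusted p below 0.05, 1 of the 13 passed, against 6.5% of all probe sets. When replicate number was a block, the counts were 0 of 13 and 0% after adjustment, and 2 of 13 and 9.6% unadjusted. In 0 of the 13 probe sets did the groups fail to overlap, against 10.9% of all probe sets. The median log2 difference over the 13, EGFP-positive minus EGFP-negative, was 0.02, and over all probe sets it was 0.01.

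**Figure D1:**
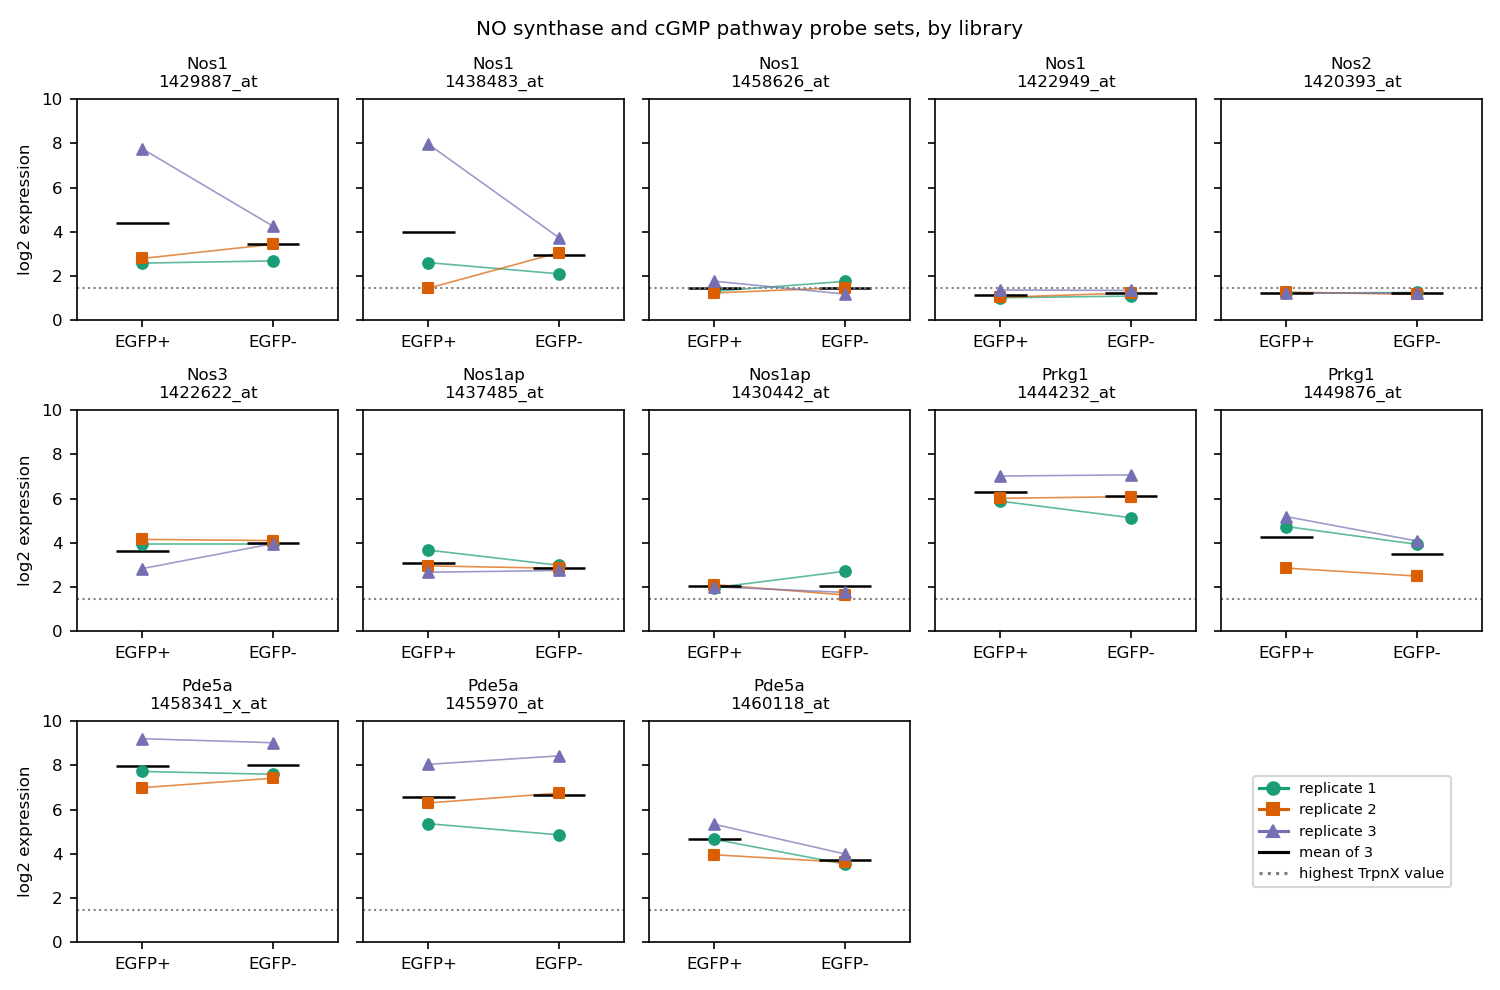
Log2 expression (vertical axis) of the 13 probe sets under the EGFP-positive label (left in each panel) and EGFP-negative (right). Lines join libraries of the same replicate number, black bars are means of 3 libraries, and the dotted line is the highest TrpnX value, 1.48. The Nos1 probe sets 1429887_at and 1438483_at stand apart in EGFP-positive replicate 3. For Pde5a 1458341_x_at and 1455970_at and Prkg1 1444232_at the black bars of both labels lie close together. Single pairs of these probe sets differ more, as in replicate 1 of Prkg1 1444232_at.

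Nos1 encodes the neuronal synthase. Its brightest probe set, 1429887_at, gave log2 values of 2.59, 2.80 and 7.74 under the EGFP-positive label and 2.69, 3.44 and 4.26 under the EGFP-negative label. A further probe set, 1438483_at, gave 2.61, 1.46 and 7.95 under the EGFP-positive label and 2.10, 3.06 and 3.74 under the EGFP-negative label. In both, EGFP-positive replicate 3 was the highest library and EGFP-negative replicate 3 the next, EGFP-positive replicates 1 and 2 lay within or below the range of the EGFP-negative libraries, and the groups overlapped. Within the pair of replicate 3 the library labelled EGFP-positive was 11.2-fold higher by 1429887_at and 18.5-fold higher by 1438483_at. Within the pair of replicate 2 the sign was opposite, with log2 differences of -0.64 and -1.60. Group means for 1429887_at were 4.38 ± 2.92 under the EGFP-positive label and 3.46 ± 0.79 under the EGFP-negative label (SD, n = 3 each), a log2 difference of 0.91 (95% interval -2.76 to 4.59, limma adjusted p = 0.983). For 1438483_at the log2 difference was 1.04 (95% interval -3.29 to 5.37, limma adjusted p = 0.985). Without EGFP-positive replicate 3 these differences turned to -0.77 and -0.94. EGFP-positive replicate 3, singled out after the Mapt values were seen, stood 4.28 and 4.98 above the mean of the 3 EGFP-negative libraries. A single library gives no spread of its own, so these are values with no test.

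The other Nos1 probe sets did not follow this pattern. The probe set 1422949_at lay between 1.02 and 1.37 and exceeded the TrpnX controls of its library in 2 of 6 libraries, and 1458626_at lay between 1.19 and 1.77 and exceeded them in 3. Their log2 differences were -0.08 (SE 0.14) and -0.04 (SE 0.21). At these levels a difference between the labels cannot be read, so that statements on Nos1 rest on 2 of its 4 probe sets. The variation of Nos1 across the 6 libraries (SD of 1.98 for 1429887_at) was larger than that of 99.1% of genes.

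The level of Nos1 can be set beside markers of neurons. The mean of the 15 pan-neuronal genes was 3.00, 2.86 and 5.87 under the EGFP-positive label and 3.19, 3.17 and 3.42 under the EGFP-negative label, and 0 of the 15 were at or below the TrpnX controls in every library. The list mean ranged from 2.86 to 5.87 under the EGFP-positive label and from 3.17 to 3.42 under the EGFP-negative label. Elavl4, an RNA-binding protein of neurons, stood at 1.81, 2.24 and 7.48 under the EGFP-positive label and 2.77, 2.83 and 3.46 under the EGFP-negative label. Both the list and Elavl4 were thus highest in the library that was highest for Nos1. The share of neurons in each library and the amount of Nos1 RNA per neuron cannot be told apart in such bulk samples, here or for the other genes, and the part of the neuronal share in the Nos1 values was not tested.

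Nos2, the inducible synthase, had log2 values of 1.23, 1.28 and 1.23 under the EGFP-positive label and 1.26, 1.18 and 1.23 under the EGFP-negative label. It exceeded the TrpnX controls in 1 of 6 libraries, by the single probe set 1420393_at, and was not detectable at this signal. Its SD over the 6 libraries, 0.03, was larger than that of only 0.682% of genes. Macrophage transcripts were present, with the 12 genes of that list at means of 5.76, 3.07 and 1.91 under the EGFP-positive label and 7.31, 7.50 and 5.99 under the EGFP-negative label. Nos2 was 1.23 in EGFP-positive replicate 3, the library with the lowest macrophage mean, and 1.18 in EGFP-negative replicate 2, the library with the highest.

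Nos3, the endothelial synthase, gave 3.93, 4.15 and 2.84 by probe set 1422622_at under the EGFP-positive label and 3.93, 4.10 and 3.96 under the EGFP-negative label. EGFP-positive replicate 3 was the lowest library by more than 1 log2 unit, and the other 5 libraries lay within a narrow band. The log2 difference between the labels was -0.36 (95% interval -1.24 to 0.53, limma adjusted p = 0.973), and 0.05 without EGFP-positive replicate 3. The 12 endothelial genes averaged 6.15, 7.10 and 4.74 under the EGFP-positive label and 6.27, 6.76 and 6.18 under the EGFP-negative label, with 0 of them at or below the TrpnX controls in every library. Cdh5, the cadherin of endothelial junctions, stood at 6.18, 6.56 and 4.77 under the EGFP-positive label and 6.64, 6.90 and 6.30 under the EGFP-negative label. The list mean, Cdh5 and Nos3 thus shared their lowest library. The highest Nos3 value, in EGFP-positive replicate 2, coincided with the highest list mean, while Cdh5 was highest in EGFP-negative replicate 2. Single genes of the list differed, with Vwf lowest in EGFP-positive replicate 1 at 6.73 and Prox1 lowest in EGFP-negative replicate 3 at 1.69. The part of the endothelial share in these values was not tested.

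Nos1ap, the adaptor of the neuronal synthase, was low. The probe set 1437485_at gave 3.67, 2.96 and 2.67 under the EGFP-positive label and 2.99, 2.85 and 2.75 under the EGFP-negative label. The probe set 1430442_at gave 1.98, 2.11 and 2.01 under the EGFP-positive label and 2.72, 1.64 and 1.76 under the EGFP-negative label. EGFP-positive replicate 3, the highest library for Nos1, was the lowest for 1437485_at and in the middle of the range for 1430442_at. The log2 differences between the labels were 0.24 (95% interval -0.43 to 0.91, limma adjusted p = 0.975) and -0.01 (95% interval -0.75 to 0.74, limma adjusted p = 0.999).

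**Figure D2:**
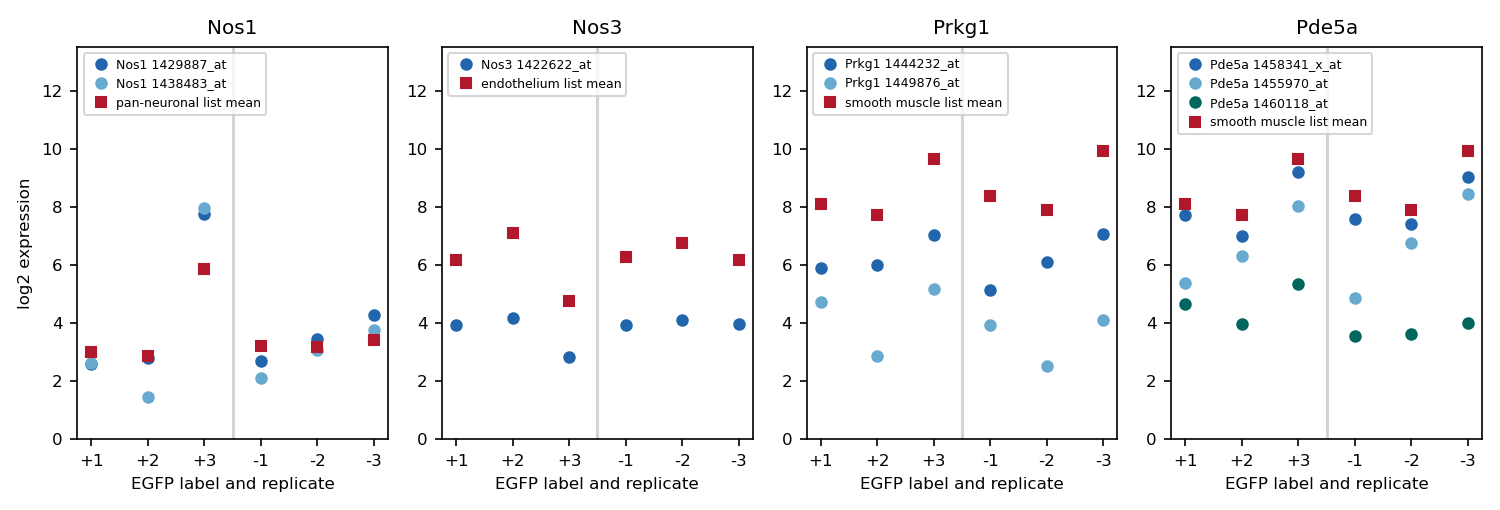
Log2 expression (vertical axis) of Nos1, Nos3, Prkg1 and Pde5a probe sets (circles) and the mean of a marker list (red squares) in each library, with the libraries labelled EGFP-positive (+1 to +3) left of those labelled EGFP-negative (-1 to -3). Nos1 and the pan-neuronal mean were highest in EGFP-positive replicate 3, at 7.74 for 1429887_at and 5.87 for the list. The smooth muscle mean was highest in replicate 3 of both labels, at 9.65 and 9.91, as were Pde5a 1458341_x_at and Prkg1 1444232_at.

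Prkg1 encodes the type I cGMP-dependent protein kinase. Its brightest probe set, 1444232_at, gave 5.88, 6.01 and 7.01 under the EGFP-positive label and 5.13, 6.08 and 7.07 under the EGFP-negative label. The probe set 1449876_at gave 4.73, 2.86 and 5.18 under the EGFP-positive label and 3.93, 2.50 and 4.08 under the EGFP-negative label. In both probe sets replicate 3 was the highest library of its label, and the probe sets disagreed on the lowest, which was replicate 1 by 1444232_at and replicate 2 by 1449876_at. For 1444232_at the pair differences on the log2 scale were 0.75, -0.07 and -0.05. Its group means were 6.30 ± 0.62 under the EGFP-positive label and 6.09 ± 0.97 under the EGFP-negative label (SD, n = 3 each). The log2 difference was 0.21 (95% interval -1.20 to 1.62, limma adjusted p = 0.991), and with the replicate block the interval was -0.40 to 0.82.

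The second Prkg1 probe set was higher under the EGFP-positive label in every pair. For 1449876_at the pair differences were 0.80, 0.36 and 1.10, and the log2 difference was 0.75 (95% interval -1.09 to 2.60, limma adjusted p = 0.972). With the replicate block it was 0.75 (95% interval 0.24 to 1.26), with an unadjusted p = 0.0155 and limma adjusted p = 0.425, so that it did not pass. Over all probe sets, 16.1% were higher under the EGFP-positive label in all 3 pairs.

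Pde5a encodes the cGMP-specific phosphodiesterase that is the target of sildenafil. The probe set 1458341_x_at, whose suffix marks probes that can bind other transcripts as well, gave 7.72, 6.99 and 9.20 under the EGFP-positive label and 7.59, 7.41 and 9.01 under the EGFP-negative label. The probe set 1455970_at gave 5.36, 6.29 and 8.04 under the EGFP-positive label and 4.86, 6.74 and 8.42 under the EGFP-negative label. Both were highest in replicate 3 of each label, and the values of the labels were interleaved. The log2 differences were -0.04 (95% interval -1.79 to 1.71, limma adjusted p = 0.999) and -0.11 (95% interval -2.84 to 2.62, limma adjusted p = 0.997). With the replicate block the intervals were -0.51 to 0.44 and -0.78 to 0.57.

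The third Pde5a probe set, 1460118_at, differed from these. It gave 4.65, 3.96 and 5.33 under the EGFP-positive label and 3.54, 3.62 and 3.99 under the EGFP-negative label. All pairs were higher under the EGFP-positive label, by 1.12, 0.34 and 1.34, although the lowest EGFP-positive value, in replicate 2, lay just under the highest EGFP-negative value, in replicate 3. The log2 difference was 0.93 (95% interval 0.02 to 1.84), with an unadjusted p = 0.0461 and limma adjusted p = 0.757, so that it did not pass. This was the probe set counted above at an unadjusted p below 0.05, where 3.93% of all probe sets were higher by that measure. With the replicate block the unadjusted p was 0.0184 and the limma adjusted p = 0.435, where 6.02% of all probe sets were higher at an unadjusted p below 0.05. The mean of the enteric glia markers, for 11 genes analysed here of 12 listed, was also higher under the EGFP-positive label in every pair. It was 6.75, 6.35 and 8.54 under the EGFP-positive label and 4.47, 6.14 and 5.65 under the EGFP-negative label. In the pair of replicate 2, Gfap, Entpd2, Fabp7 and Gpr37l1 went the other way, with Gpr37l1 at 6.34 under the EGFP-positive label and 6.98 under the EGFP-negative label. None of the 11 was at or below the TrpnX controls in every library, and the part of the glial share in the values of Pde5a 1460118_at and Prkg1 1449876_at was not tested.

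**Figure D3:**
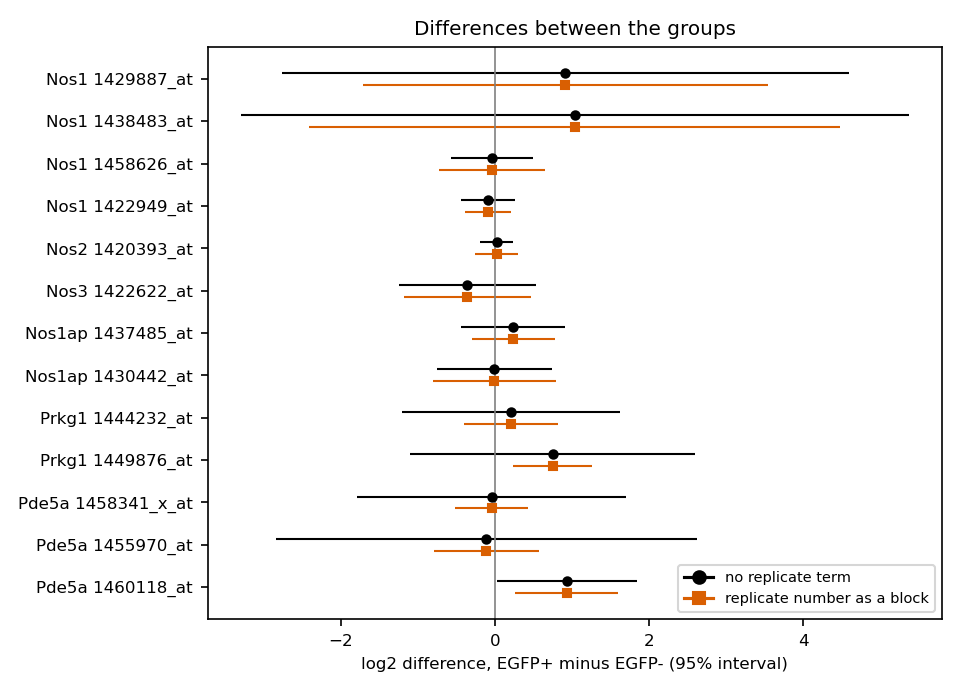
Log2 difference between the libraries labelled EGFP-positive and those labelled EGFP-negative (horizontal axis) for each of the 13 probe sets, with 95% intervals from limma without a replicate term (black circles) and with a block for replicate number (orange squares). The interval of Pde5a 1455970_at runs between -2.84 and 2.62 without the block and between -0.78 and 0.57 with it, and that of Nos1 1429887_at is wide in both.

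Replicate number accounted for most of the variation of both Prkg1 probe sets and of 2 of the 3 Pde5a probe sets. It held 97.2% and 97.0% of the sum of squares over the 6 libraries for Pde5a 1458341_x_at and 1455970_at. For 1460118_at it held 33.4%, and the label held 55.0%. For Prkg1 the shares were 89.5% by 1444232_at and 81.8% by 1449876_at. Among the 9440 probe sets with a value above 6 in any library the median share was 52.4% and the upper quartile 75.7%. These shares are descriptions of 6 libraries and carry no test.

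The smooth muscle list mean, like each Prkg1 and Pde5a probe set, was highest in replicate 3 of each label. The 12 genes of that list averaged 8.10, 7.70 and 9.65 under the EGFP-positive label and 8.38, 7.88 and 9.91 under the EGFP-negative label, and replicate number held 97.9% of their sum of squares. Myh11, the smooth muscle myosin heavy chain, stood at 8.86, 9.06 and 11.07 under the EGFP-positive label and 8.55, 9.25 and 11.15 under the EGFP-negative label. The list mean ranged from 7.70 to 9.65 under the EGFP-positive label and from 7.88 to 9.91 under the EGFP-negative label, with 0 of the 12 genes at or below the TrpnX controls in every library. By the list as by 1458341_x_at of Pde5a, replicate 2 was lowest, replicate 1 next and replicate 3 highest within each label. Myh11 differed from its list and was lowest in replicate 1 of each label. The poly-A controls given above were brightest in replicate 1 of both labels, where 1444232_at of Prkg1 and 1455970_at of Pde5a were lowest. The part of the muscle share and of these controls in the Prkg1 and Pde5a values was not tested.

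Windows upstream of annotated starts of Prkg1, Pde5a and Nos1 are shown because the brightest probe set of each was highest in replicate 3 of both labels. They are the 250 bases before an annotated transcription start in RefSeq (GRCm38.p6), 5′ to 3′ on the strand of the gene, and capitals mark the GC box GGGCGG, searched on both strands. The table held 6 such windows for 4 of the 6 genes. The Prkg1 window, at chr19:31664371-31664620 on the minus strand, precedes an internal start of the gene and lies within its span (chr19:30564487-31765268). A second Prkg1 window, chr19:31765034-31765283, overlaps the annotated span of the gene for most of its length and is not printed. The Pde5a window is at chr3:122728908-122729157 on the plus strand, directly before the gene (chr3:122729158-122859374). The Nos1 window is at chr5:117866589-117866838 on the plus strand, directly before the annotated start of the gene (chr5:117866839-117958840). Whether any of these starts is used in the sorted cells was not tested, so the windows cannot be taken as active promoters.
Prkg1: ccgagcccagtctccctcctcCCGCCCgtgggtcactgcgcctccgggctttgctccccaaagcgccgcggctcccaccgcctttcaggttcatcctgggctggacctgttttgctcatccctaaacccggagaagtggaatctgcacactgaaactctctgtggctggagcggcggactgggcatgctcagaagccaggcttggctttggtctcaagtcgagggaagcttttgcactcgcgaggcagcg
Pde5a: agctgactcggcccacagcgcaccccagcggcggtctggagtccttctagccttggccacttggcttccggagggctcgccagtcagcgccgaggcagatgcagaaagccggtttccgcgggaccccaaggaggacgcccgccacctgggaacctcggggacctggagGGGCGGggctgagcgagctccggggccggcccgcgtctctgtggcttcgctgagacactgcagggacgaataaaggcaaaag
Nos1: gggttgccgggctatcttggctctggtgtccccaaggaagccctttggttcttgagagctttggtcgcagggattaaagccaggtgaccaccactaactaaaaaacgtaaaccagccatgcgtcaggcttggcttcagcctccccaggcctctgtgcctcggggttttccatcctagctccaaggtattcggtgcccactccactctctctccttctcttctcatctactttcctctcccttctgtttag
The printed Prkg1 and Pde5a windows, and the second Prkg1 window, each held 1 GC box and the Nos1 window 0, where 32.7% of all 32851 windows of this length held it. The E box CANNTG, the same on both strands, occurred 0, 3 and 1 times in the Prkg1, Pde5a and Nos1 windows, and in 66.2% of all windows. The CArG box, a motif of many smooth muscle promoters, occurred in 0 of these 3 windows and in 1.47% of all windows. The printed windows were 62.8%, 68.4% and 54.0% G and C and the second Prkg1 window 55.2%, against a median of 52.4% over all windows.

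Other genes of the pathway were read from 4 lists, for nitric oxide synthesis, guanylyl cyclases with their ligands, cGMP kinases with their substrates, and cGMP breakdown, efflux and gated channels. Each gene was represented by its probe set with the highest mean. Of 81 listed genes 73 were analysed here, and 0 passed in either direction (limma adjusted p below 0.05), where 0% of the 18193 genes passed. The groups did not overlap for 1 gene that was higher and 6 that were lower under the EGFP-positive label, against 3.07% and 6.04% of all genes. The median log2 difference was -0.09 over the 73 genes and -0.02 over all genes. A highest value above 6 was reached by 33 of the 73 genes, or 45.2%, and by 33.5% of all genes. Of the 37 genes of these lists with several probe sets, 17 had probe sets with log2 differences of opposite sign.

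The nitric oxide receptor was well represented under both labels. Gucy1a1, its alpha 1 subunit, had log2 values of 7.38, 8.51 and 7.90 under the EGFP-positive label and 7.34, 9.13 and 8.67 under the EGFP-negative label. Gucy1b1, its beta 1 subunit, had 6.17, 7.11 and 7.17 under the EGFP-positive label and 5.24, 7.65 and 7.46 under the EGFP-negative label. Both subunits were lowest in replicate 1 of each label, and the groups overlapped. Pdgfra, a marker of fibroblast-like interstitial cells, stood at 8.60, 9.82 and 8.43 under the EGFP-positive label and 8.14, 10.39 and 10.17 under the EGFP-negative label, and Gucy1a1 and Pdgfra thus shared EGFP-negative replicate 2 as their highest library and EGFP-negative replicate 1 as their lowest. The 10 genes listed for PDGFRA-positive and fibroblast-like cells averaged 8.32, 8.66 and 7.86 under the EGFP-positive label. Under the EGFP-negative label they averaged 8.20, 9.19 and 9.08. This mean was also highest in EGFP-negative replicate 2, but lowest in EGFP-positive replicate 3. Single genes of the list differed, with Dcn highest in EGFP-negative replicate 1 at 12.83. Kit, a marker of interstitial cells of Cajal, shared the highest and lowest library of Gucy1a1, at 7.42 and 3.16. The mean of that list, for 5 genes analysed here of 7 listed, was also highest in EGFP-negative replicate 2, at 5.61, but lowest in EGFP-positive replicate 3, at 3.78. The part of either cell type in the receptor values was not tested. Gucy1a2, the alternative alpha 2 subunit, lay between 1.49 and 2.73. In the list of 14 cyclases and ligands 0 genes had groups that did not overlap, against 3.07% higher and 6.04% lower among all genes. The median log2 difference of the list was 0.03.

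Guca2a and Prkg2, both known from intestinal epithelium, followed another pattern. Guca2a, the gene of the peptide guanylin that activates the membrane cyclase of epithelium, had 8.64, 7.40 and 3.66 under the EGFP-positive label and 7.77, 7.46 and 4.92 under the EGFP-negative label. Prkg2, the type II cGMP-dependent kinase, had 4.41, 3.34 and 2.63 under the EGFP-positive label and 3.23, 2.82 and 1.51 under the EGFP-negative label. Both had their highest value in EGFP-positive replicate 1, and in each label replicate 3 was lowest, the opposite of Prkg1. The 12 genes of intestinal epithelium averaged 7.83, 7.04 and 4.35 under the EGFP-positive label and 6.58, 7.02 and 5.39 under the EGFP-negative label, and 0 of them were at or below the TrpnX controls in every library. The part of the epithelial share in these values was not tested.

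Of the 16 genes in the list of cGMP kinases and substrates, 11 were highest in replicate 3 of both labels (68.8%), against 14.9% of all genes. Mylk, the myosin light chain kinase of contraction, had 9.73, 9.68 and 11.68 under the EGFP-positive label and 10.20, 9.47 and 11.79 under the EGFP-negative label. Mrvi1, now named Irag1, which links the kinase to calcium release, had 6.44, 6.44 and 7.78 under the EGFP-positive label and 6.54, 6.73 and 8.24 under the EGFP-negative label. Both were highest in replicate 3 of each label, as the smooth muscle list was. Vasp, an actin regulator and kinase substrate, had 7.51, 7.10 and 7.25 under the EGFP-positive label and 7.18, 7.20 and 8.16 under the EGFP-negative label, so that only its EGFP-negative values were highest in replicate 3. Csrp2, a muscle LIM protein, lay between 8.28 and 9.39, with its lowest value in EGFP-positive replicate 3, and the small GTPase gene Rhoa lay between 8.98 and 9.40. Rhoa was the 1 gene of the 16 in this list whose groups did not overlap by its brightest probe set, at 9.02 ± 0.04 under the EGFP-positive label and 9.21 ± 0.17 under the EGFP-negative label (SD, n = 3 each). By its probe set 1450632_at the groups overlapped, with 7.89, 8.72 and 8.43 under the EGFP-positive label and 8.43, 8.65 and 9.04 under the EGFP-negative label. The dimmer 1443768_at had the opposite direction, with a log2 difference of 1.25, and its groups overlapped too. Among all genes the groups did not overlap for 3.07% that were higher and 6.04% that were lower. The list had a median log2 difference of -0.19.

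Among the genes of cGMP breakdown and efflux, the 3 with the highest means varied little by their brightest probe sets. Pde2a, a phosphodiesterase that cGMP itself stimulates, lay between 7.92 and 8.30 by 1447707_s_at, while its probe set 1452202_at ran from 4.06 to 6.11. Pde3b, a phosphodiesterase that cGMP inhibits, lay between 6.32 and 7.13, and Pde6d, a carrier of prenylated proteins that was first found with the photoreceptor phosphodiesterase, between 5.51 and 6.23. The SDs within a label were at most 0.36 for these 3 genes by those probe sets, and their groups overlapped. Of the 22 genes of this list 5 exceeded 6 in any library, and the median log2 difference was -0.09. The groups did not overlap for 1 gene, which was lower under the EGFP-positive label, against 6.04% of all genes. That gene, Pde6c of cone photoreceptors, was chosen after its values were seen and lay between 1.12 and 1.42, around the TrpnX controls.

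In the list of nitric oxide synthesis, regulators with the highest means were Cav1, Dynll1 and Hsp90aa1. Cav1, the membrane protein caveolin 1 that binds the endothelial synthase, lay between 10.98 and 11.81, Dynll1, a dynein light chain that binds the neuronal synthase, between 10.76 and 11.54, and Hsp90aa1, a chaperone of the synthases, between 9.09 and 10.04. Their groups overlapped by these probe sets, but for Hsp90aa1 and Dynll1 not by some others of the same gene. Hsp90aa1 was higher under the EGFP-positive label by 1426645_at, with 8.92, 9.08 and 9.04 there and 8.65, 8.10 and 8.65 under the EGFP-negative label, and also by 1437497_a_at (log2 difference 0.53). Dynll1 was lower by 1448682_at, with 10.37, 10.51 and 10.63 under the EGFP-positive label and 10.95, 10.98 and 10.82 under the EGFP-negative label. With each gene read from its brightest probe set, the groups did not overlap for 5 of the 21 genes of this list. All 5 were chosen for naming after their values were seen. Over all genes the groups did not overlap for 3.07% that were higher and 6.04% that were lower. Ddah1, which degrades an inhibitor of nitric oxide synthases, was the 1 that was higher under the EGFP-positive label, with 4.87, 4.76 and 5.21 there and 4.01, 4.39 and 4.45 under the EGFP-negative label. The other Ddah1 probe sets did not separate the groups. Of these, 1454995_at had 3.83, 4.09 and 4.89 under the EGFP-positive label and 3.28, 4.07 and 3.55 under the EGFP-negative label, and 1434519_at had a log2 difference of -0.007. Arg1, the arginase that shares its substrate with the synthases, was also named after its values were seen and had 6.22, 1.54 and 1.40 under the EGFP-positive label and 7.51, 8.46 and 5.50 under the EGFP-negative label. It was lower in every pair, but the groups overlapped. The 4 genes with lower values and no overlap were Gch1, Pts, Gchfr and Nostrin.

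Gch1, the first enzyme in the synthesis of the cofactor tetrahydrobiopterin, had 3.33, 3.31 and 3.43 under the EGFP-positive label and 3.85, 4.25 and 3.70 under the EGFP-negative label. Pts, the next enzyme, had 5.37, 5.53 and 5.45 under the EGFP-positive label and 6.53, 6.17 and 5.71 under the EGFP-negative label. Gchfr, the feedback regulator of Gch1, had 1.33, 1.22 and 1.15 under the EGFP-positive label and 2.14, 1.53 and 1.37 under the EGFP-negative label, close to the TrpnX controls. The second Gch1 probe set, 1429692_s_at, did not share the direction and gave 2.42, 2.58 and 5.04 under the EGFP-positive label and 2.64, 2.91 and 3.25 under the EGFP-negative label, with its highest value in the library that was highest for Nos1. Spr, the last enzyme of the route, had 5.79, 5.15 and 5.13 under the EGFP-positive label and 5.19, 4.40 and 5.40 under the EGFP-negative label, and its groups overlapped. Qdpr, which recycles the cofactor, had 9.28, 8.63 and 9.21 under the EGFP-positive label and 9.50, 8.53 and 8.55 under the EGFP-negative label, again with overlap, so that the enzymes of this cofactor did not share a direction. Nostrin, a trafficking partner of the endothelial synthase, was the remaining lower gene and lay between 1.69 and 2.57. Beside these genes, the macrophage list mean ranged from 1.91 to 5.76 under the EGFP-positive label and from 5.99 to 7.50 under the EGFP-negative label, and its part in their values was not tested.

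**Figure D4:**
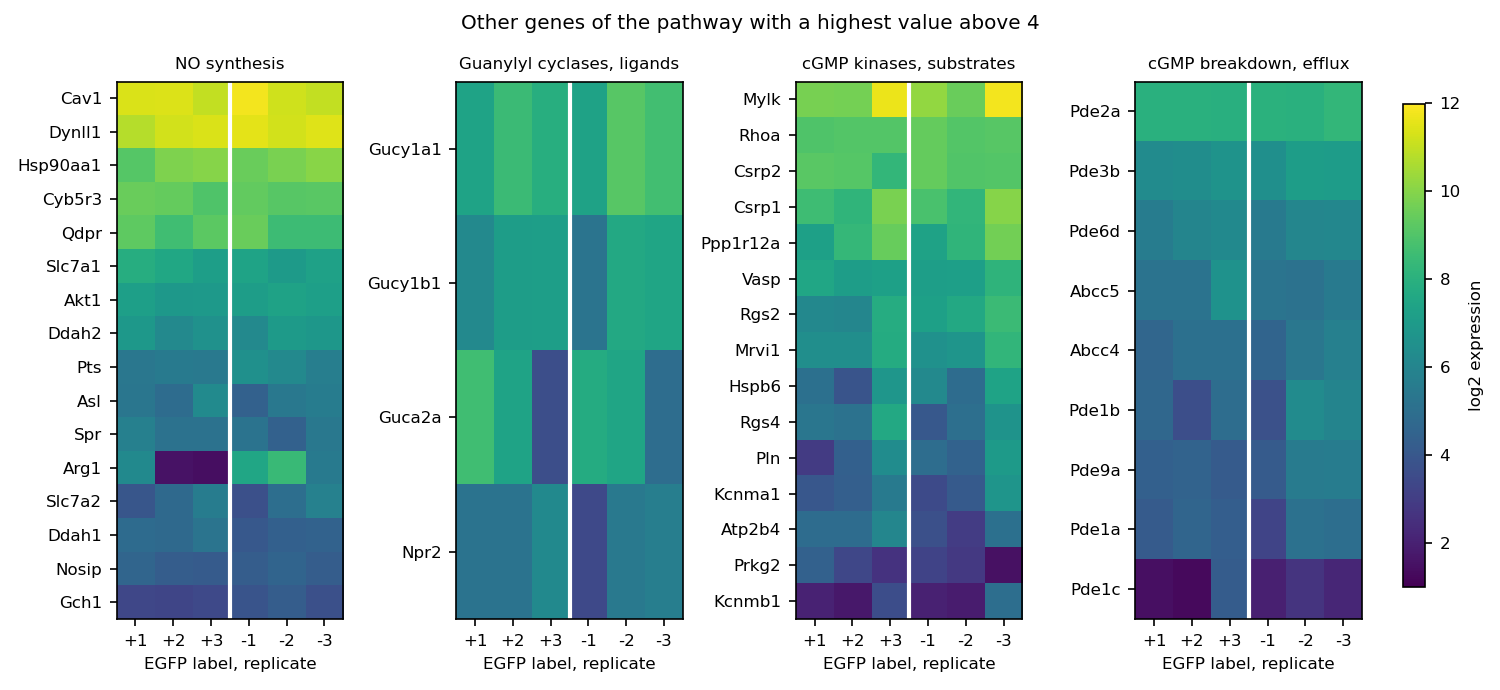
Log2 expression (colour) of the 44 of 73 other pathway genes with a highest value above 4, under the EGFP-positive label (+1 to +3, left of the white line) and EGFP-negative (-1 to -3, right of it), ordered within each list by mean. Mylk and Mrvi1 are brightest in replicate 3 of both labels, at 11.68 and 11.79 for Mylk, and Guca2a is dimmest there, at 3.66 and 4.92.

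The genes whose pattern over the 6 libraries was most like a member's were found by Pearson correlation with its brightest probe set, among the 6091 other genes with a value above 6 in any library. For Nos1 these were Mllt11, a transcription cofactor (r = 0.994), Cnr1, the cannabinoid receptor of neurons (r = 0.993), and Stmn3, a neuronal stathmin (r = 0.993). Without EGFP-positive replicate 3 the r values were 0.948, 0.936 and 0.953. The genes had been picked by r over all 6 libraries, so these values are no independent check. Cnr1 had log2 values of 1.80, 2.07 and 7.78 under the EGFP-positive label and 2.50, 2.71 and 3.54 under the EGFP-negative label, and so had the same highest library as Nos1. For Prkg1 they were Dpp9, a dipeptidyl peptidase (r = 0.988), Slc25a12, a mitochondrial carrier (r = 0.987), and Fgfr2, a growth factor receptor (r = 0.985). For Pde5a they were Ckb, a creatine kinase (r = 0.991), Tgfb1i1, an adaptor of focal adhesions (r = 0.976), and Gab2, a docking protein (r = 0.975). Tgfb1i1 had 6.74, 6.50 and 7.47 under the EGFP-positive label and 6.87, 6.64 and 7.62 under the EGFP-negative label, again with replicate 3 highest in each. Nos2, Nos3 and Nos1ap varied too little for this search, with an SD over the 6 libraries under 0.5. These correlations rest on 6 libraries that share arrays of 1 type and their numbering, and they carry no test.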

How the data were processed

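Total RNA of sorted cells was labelled from about 50 ng and measured on Affymetrix Mouse Genome 430 2.0 arrays (1 colour), per the labels' protocols. The deposited log2 values were made by the authors with RMA, per the submitters' processing notes, with version and settings not given in the sources used here. Values ran from 0.05 to 15.2, with column medians of 1.91 to 1.99 and unequal upper quartiles (4.08 to 4.86), which is unusual for quantile-normalised RMA, so that little can be read from small differences between dim probe sets. Of 45101 probe sets, 64 were controls, 34945 had 1 gene symbol in the platform annotation, 932 several and 9160 none, and 0 symbols needed an update.

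No normalisation was added. Differences between the labels were tested in R 4.3.3 by limma 3.58.1 (lmFit, eBayes, two-sided) over 45037 probe sets with Benjamini-Hochberg adjustment, and checked on simulated data. Figures used Python 3.11.15, pandas 2.3.3 and matplotlib 3.10.9. Members and lists were chosen with earlier results of these data known. Named genes were the members, the receptor subunits, Prkg2, Irag1 and Vasp, the 3 genes of each list with the highest means, and the 3 genes most like each member with an SD of at least 0.5 and a highest value above 4. Outside this rule, Elavl4, Cdh5, Myh11, Pdgfra and Dcn were named from the marker lists, and Spr and Qdpr from the synthesis list. Vwf, Prox1, Kit, Gfap, Entpd2, Fabp7 and Gpr37l1 were named from the marker lists after their values were seen. Genes marked above or below as named after their values were seen also lie outside it.

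The labels number replicates 1 to 3 under both labels without stating a pairing. The deviations of same-numbered libraries correlated at 0.36, 0.30 and 0.38, so the numbers were taken to pair the samples on the evidence of the data, and the replicate block is given beside results. Alternatives were the block, 3 other scalings, 2 other variance models, a filter on low means, 1 probe set per gene, leaving out each library, and EGFP-positive replicate 3 alone, the last chosen after seeing the data.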

Additional observations from a re-analysis of the deposited data

How the results depend on the processing

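Of the 15 alternatives tried, EGFP-positive replicate 3 alone gives no spread of its own, so its p-values are not read here. In the others none of the 13 probe sets passed limma's adjusted p below 0.05, and 0 pathway genes did. The lowest limma adjusted p there was 0.228, for Pde5a 1460118_at with ribosomal protein centring. Of 185 values of the members under all 15 alternatives, 152 kept the direction and 33 turned it. The 2 of the 13 probe sets that kept it throughout were Prkg1 1449876_at and Pde5a 1460118_at. The replicate block left all differences as they were and changed no call. With it 0 probe sets of the array passed, and the adjusted p of Pde5a 1460118_at was 0.435. Over all probe sets the count was 0 to 2 when each library was left out in turn, with 2 without EGFP-positive replicate 1, and 0 otherwise. Those were Ccr2 and Fermt3, named after their values were seen, with log2 differences of -5.72 each (limma adjusted p = 0.0480 and 0.0158).

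Centring on ribosomal protein genes moved the median of all probe sets to 0.30, and with it Nos1 1458626_at to 0.26 and 1422949_at to 0.21, Nos1ap 1430442_at to 0.29, and Pde5a 1458341_x_at to 0.25 and 1455970_at to 0.18. All 5 thus moved to no more than that shift. Median centring gave -0.014 for Nos2. Array weights gave -0.069 for Nos1 1438483_at, 0.25 for Nos1ap 1430442_at and -0.032 for Prkg1 1444232_at. EGFP-positive replicate 3 alone gave 0.29 and 0.14 for Nos1 1458626_at and 1422949_at, -0.19 for Nos1ap 1437485_at, and 1.19 and 1.37 for Pde5a 1458341_x_at and 1455970_at. The causes of these reversals were not tested. Ribosomal protein centring also moved the list medians, to 0.21 for nitric oxide synthesis, 0.32 for cyclases, 0.10 for kinases and substrates and 0.21 for cGMP breakdown. The kinase list median ran from -0.62 to 0.28 when libraries were left out.

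Leaving out each library gave ranges of -0.77 to 1.81 for Nos1 1429887_at, -0.94 to 2.31 for 1438483_at and -0.20 to 0.11 for 1458626_at. The ranges were -0.0014 to 0.0415 for Nos2, -0.61 to 0.045 for Nos3, -0.047 to 0.45 for Nos1ap 1437485_at and -0.20 to 0.33 for 1430442_at. They were -0.27 to 0.69 for Prkg1 1444232_at, -0.65 to 0.47 for Pde5a 1458341_x_at and -1.02 to 0.77 for 1455970_at. The 2 that kept their direction ran from 0.25 to 1.45 for Prkg1 1449876_at, against 0.75 with all libraries, and from 0.59 to 1.28 for Pde5a 1460118_at, against 0.93. Prkg1 1449876_at was lowest without EGFP-negative replicate 2, at 0.29 without EGFP-positive replicate 3 and highest without EGFP-positive replicate 2, and Pde5a 1460118_at was lowest without EGFP-positive replicate 3. The filter on low means kept 10 of the 13 probe sets and left out Nos2 and 2 of Nos1, which lay near background and allow no reading of a difference.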
